A study of Bos taurus with 6 samples.

Results

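RBM3, CIRBP, YBX1, YBX3 and CARHSP1 are genes of RNA-binding proteins that either respond to cooling or carry a cold shock domain. They were taken as every probe set whose platform annotation gives 1 of these symbols and no other. That rule uses no measured value, but the 5 genes were picked with earlier results of these data known. Each of the 5 genes had 1 such probe set, so the members were 5 of the 6337 named genes and 5 of the 12763 probe sets in the table, and 0 further probe sets named a member among several symbols.

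RNA of white blood cells from female Sanhe heifers, a Chinese cattle breed, was labelled with biotin and read on Affymetrix bovine arrays. There were 3 arrays before cold (numbered 4, 5 and 6) and 3 after it (1, 2 and 3), from 3 animals drawn at random among 30 and sampled at both times. Cold exposure was 3 hours outdoors at -32 °C and then 15 hours in a shed at 5 °C, while the animals shared a shed and a total mixed ration. When within this sequence the later blood was taken is not stated in the sources used here, nor which arrays share an animal. Except where a matching of arrays was fitted as a block, each test below therefore treats the 6 arrays as separate and ignores the shared animals. The p-value of such a test sets the group difference against the variation among these arrays, which limma moderates with that of all probe sets.

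RBM3 and CIRBP are small glycine-rich proteins with a single RNA recognition motif, and both are known for mRNA that accumulates when cultured cells or tissues are mildly cooled. RBM3 binds mRNAs and favours their translation in cooled cells, while CIRBP stabilises stress-related mRNAs and, when released from cells, acts as an inflammatory signal. YBX1, YBX3 and CARHSP1 carry a cold shock domain, a nucleic acid binding fold shared with bacterial cold shock proteins. In vertebrates that domain marks a family of mRNA packaging and mRNA stability factors, not genes that are all switched on by cold.

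No member passed the test for a difference between the times, and neither of the genes known for induction by cooling had a higher mean after cold. RBM3 had the mean difference furthest from 0 among the 5, 1.59-fold lower after cold. CIRBP and YBX1 also had lower means after cold, by 1.19-fold and 1.24-fold, whereas YBX3 and CARHSP1 had higher ones, by 1.30-fold and 1.19-fold. With limma and Benjamini-Hochberg adjustment over all probe sets, 0 of 5 members had an adjusted p under 0.05, against 0% of all probe sets (0 of 12763). At an unadjusted p under 0.05 there were also 0 members, against 0.494% (63 probe sets). That share is below the one this threshold gives on average where no probe set differs, so 0 calls among 5 members say little. The values of the before and after arrays overlapped in all 5 members, while they did not overlap in 4.38% of all probe sets.

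RBM3 (NCBI gene 509771) had log2 intensities of 9.34, 9.71 and 8.71 on the after 1, 2 and 3 arrays. Before cold it was at 9.86, 9.71 and 10.19 on arrays 4, 5 and 6. On the linear scale the 3 later values were 649, 838 and 417, and the 3 earlier ones 929, 836 and 1167. The after 3 array was the lowest and the before 6 array the highest, and the groups met at a single point, where after 2 lay 0.0031 above before 5. The group means were 9.92 ± 0.25 before and 9.25 ± 0.51 after (SD over n = 3 arrays each). The difference on the log2 scale was -0.67 ± 0.32 (SE; limma, p = 0.0728, adjusted p = 1.00), and an exact permutation test, two-sided, gave p = 0.2, where 3 arrays against 3 cannot go below 0.1. The 95% interval of the fit ran from -1.41 to 0.08, that is from 2.66-fold lower to 1.06-fold higher after cold. A lower difference than that of RBM3 was found in 4.31% of all probe sets, and a mean at least 1.5-fold lower after cold in 6.81% of them, RBM3 included.

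The size of the RBM3 difference rested in part on the after 3 array. Without it the difference was -0.39 ± 0.28 (SE), and without the after 2 array it was -0.89 ± 0.32. Of the 21 alternative settings, 10 (filters, other variance models and blocks) keep the difference at its value by construction. In the 11 that can move it, the after mean was below the before mean, with differences from -0.89 to -0.39. Of the 21 settings 5 gave an unadjusted p under 0.05 (limma). They were array weights, 2 of the 6 matchings as a block, leaving out after 2, and leaving out after 2 and before 6 together. At most 1 matching can be the true one, and the last setting was chosen after the data were seen. The array weights nearly left out after 1 (weight 0.0019) and leaned on before 4 (30.7), and their estimation stopped before convergence. The 5 settings use the same arrays and are not independent. The smallest adjusted p among the 21 was 0.283, without the after 2 array (limma).

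CIRBP (NCBI gene 507120) was at log2 intensities of 9.76, 9.01 and 9.82 on the after 1, 2 and 3 arrays. Before cold it was at 10.17, 9.69 and 9.47 on arrays 4, 5 and 6. The after 2 array was the lowest of the 6 and before 4 the highest, and the other 4 arrays lay between 9.47 and 9.82 with both groups among them. The group means were 9.78 ± 0.36 before and 9.53 ± 0.45 after (SD over n = 3 arrays each). The log2 difference of -0.25 ± 0.33 (SE; limma, p = 0.465, adjusted p = 1.00; exact permutation test, two-sided, p = 0.6) was smaller than its error. Its 95% interval ran from -1.001 to 0.50. Its sign rested on 1 array, since without after 2 the difference was 0.0095. A lower difference than that of CIRBP over all 6 arrays was found in 24.1% of all probe sets.

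YBX1 encodes Y-box binding protein 1, an abundant packaging protein of cytoplasmic mRNA that also acts in transcription. Its probe set (NCBI gene 287023) was at log2 intensities of 11.45, 11.74 and 11.06 after cold (arrays 1, 2 and 3). Before cold it was at 11.68, 11.76 and 11.75 (arrays 4, 5 and 6). The 3 before arrays and after 2 lay within 0.09 of each other, while after 1 and after 3 were below all of them. The means were 11.42 ± 0.34 and 11.73 ± 0.05 (SD, n = 3 in each group), so nearly all of the spread was among the after arrays. The log2 difference was -0.31 ± 0.27 (SE; limma, p = 0.279, adjusted p = 1.00), with a 95% interval from -0.93 to 0.31, and the exact permutation test, two-sided, gave p = 0.2. A lower difference was found in 19.9% of all probe sets. Without the after 3 array the YBX1 difference was -0.13. Over the 6 arrays YBX1 covered a range of 1.63-fold, and 22.7% of all probe sets had a smaller range.

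YBX3 encodes a close relative of YBX1 that represses translation and binds mRNAs and promoters. Its probe set (NCBI gene 533297) had log2 intensities of 9.75, 9.65 and 9.38 after cold (arrays 1, 2 and 3) and of 9.65, 8.48 and 9.52 before it (arrays 4, 5 and 6). A single array stood apart, before 5, and the other 5 lay between 9.38 and 9.75 with the groups intermixed. The means were 9.60 ± 0.19 and 9.22 ± 0.64 (SD, n = 3 in each group). The log2 difference was 0.38 ± 0.35 (SE; limma, p = 0.317, adjusted p = 1.00; exact permutation test, two-sided, p = 0.6), with a 95% interval from -0.44 to 1.19. Without the before 5 array the difference was 0.0090. A higher difference than that of YBX3 over all 6 arrays was found in 3.02% of all probe sets.

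CARHSP1, a cold shock domain protein that binds and stabilises mRNAs such as that of tumour necrosis factor, is NCBI gene 506760. Its log2 intensities were 8.75, 7.55 and 8.89 after cold (arrays 1, 2 and 3) and 8.43, 8.46 and 7.53 before it (arrays 4, 5 and 6). After 2 and before 6 were nearly equal and low, and the other 4 arrays lay between 8.43 and 8.89, with the after arrays above the before arrays among those 4. The means were 8.40 ± 0.73 and 8.14 ± 0.53 (SD, n = 3 in each group). The log2 difference of 0.26 ± 0.43 (SE; limma, p = 0.568, adjusted p = 1.00; exact permutation test, two-sided, p = 0.5) had the widest 95% interval of the 5 members, from -0.73 to 1.25. A higher difference was found in 12.6% of all probe sets. Leaving out after 2 gave a CARHSP1 difference of 0.68, and leaving out before 6 gave -0.05.

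Single arrays also decided whether the groups overlapped. Without after 2 they did not overlap in 3 members (RBM3 and YBX1 lower, CARHSP1 higher after cold), beside 39.9% of all probe sets. Without after 2 and before 6 together the same 3 genes did not overlap, beside 45.2%. Without before 4 only YBX1 had groups that did not overlap, beside 9.91% of all probe sets, and without before 5 only RBM3, beside 8.81%.

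**Figure D1:**
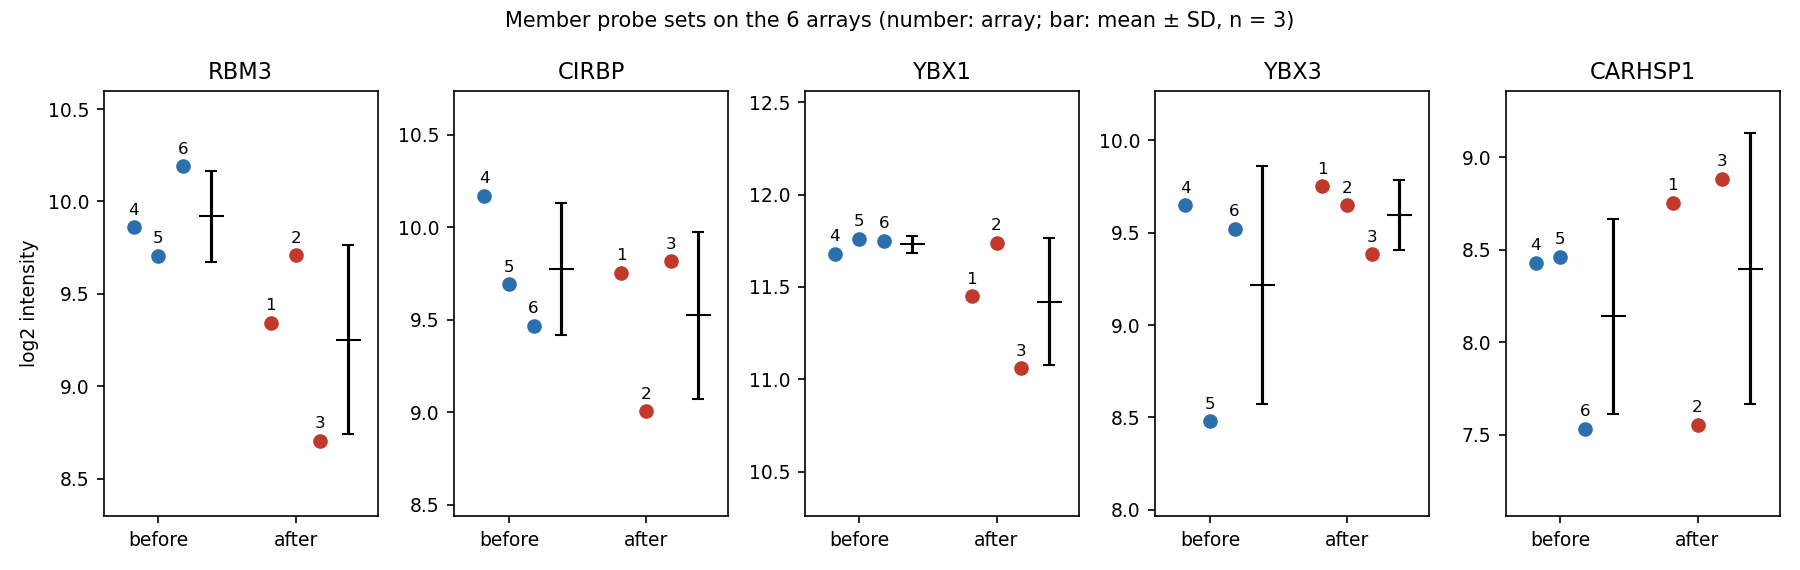
Log2 intensity of each member's probe set on the 3 before (blue) and 3 after (red) arrays, with the array number above each point and the mean ± SD (n = 3) as a black bar; all panels span the same number of log2 units, and levels are not comparable between panels. The groups overlap in all 5 panels, by 0.0031 in RBM3. Single arrays stand apart in YBX3 (before 5, at 8.48), RBM3 (after 3, at 8.705) and CIRBP (after 2, at 9.01).

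**Figure D2:**
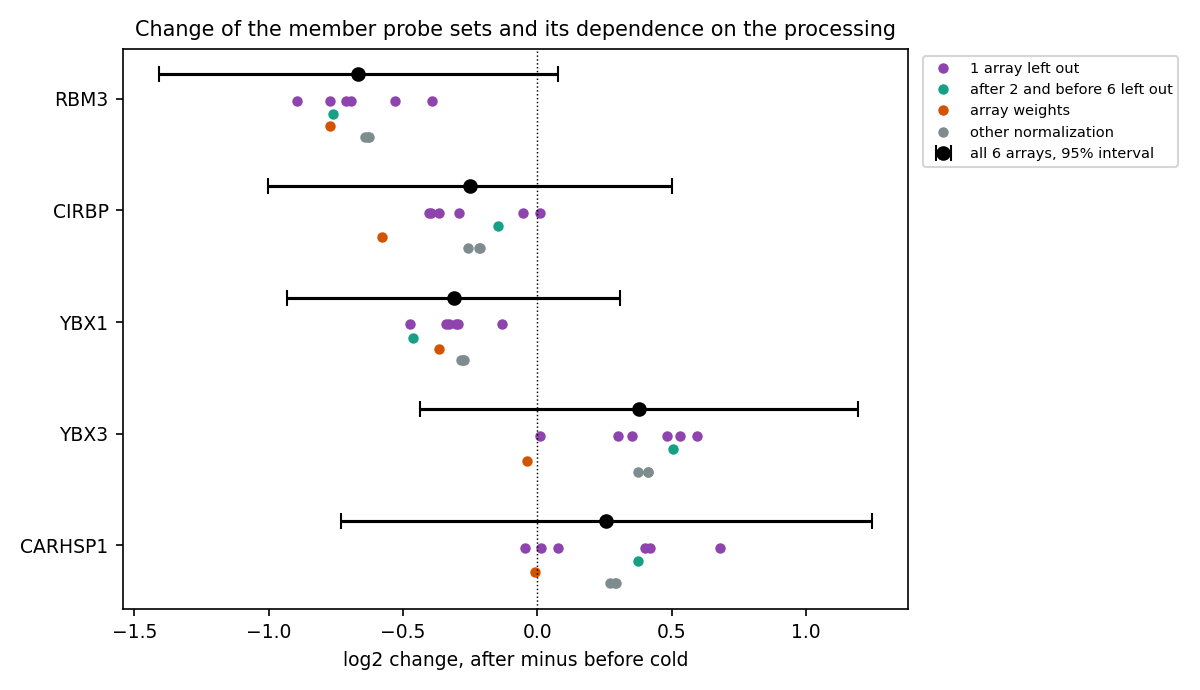
Difference of log2 intensity, after minus before cold, for each member, with the limma estimate and 95% interval over 6 arrays in black and the estimates under other settings as coloured points. All 5 intervals cross 0, from -1.41 to 0.08 in RBM3; the points of RBM3 and YBX1 stay below 0, and some of those of CIRBP, YBX3 and CARHSP1 lie on the other side of it.

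The 2 times were also set against each other array by array, since each after array shares its animal with 1 before array that the labels do not name. RBM3 was lower on the after array in 8 of the 9 possible after-before pairs, with differences from -1.48 to 0.0031. YBX1 was lower in 8 of 9 pairs as well, and CIRBP in 5 of 9. YBX3 was higher in 6 of 9 and CARHSP1 in 7 of 9. The 9 pairs are built from the same 6 arrays and are not independent, so these counts are a description.

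Of the 6 ways to match the after with the before arrays, 4 gave a lower RBM3 on the after array in all 3 pairs, and the other 2 in 2 of 3 pairs. With the matching as a block in limma, the RBM3 difference stayed at -0.67 and its SE ran from 0.17 to 0.42. The unadjusted p ran from 0.00676, for after 1 with before 4, after 2 with before 6 and after 3 with before 5, to 0.150. The adjusted p ran from 0.492 to 1.00, so RBM3 passed the threshold under none of the 6. The matching with the smallest RBM3 p also gave the smallest SE of the 6 in the other 4 members, from 0.16 (CARHSP1) to 0.21 (YBX3). In those 4 the smallest unadjusted p of any matching was 0.110, in YBX3. For YBX1, 4 matchings had 3 of 3 pairs lower after cold, and the corresponding number for CIRBP was 0.

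**Figure D3:**
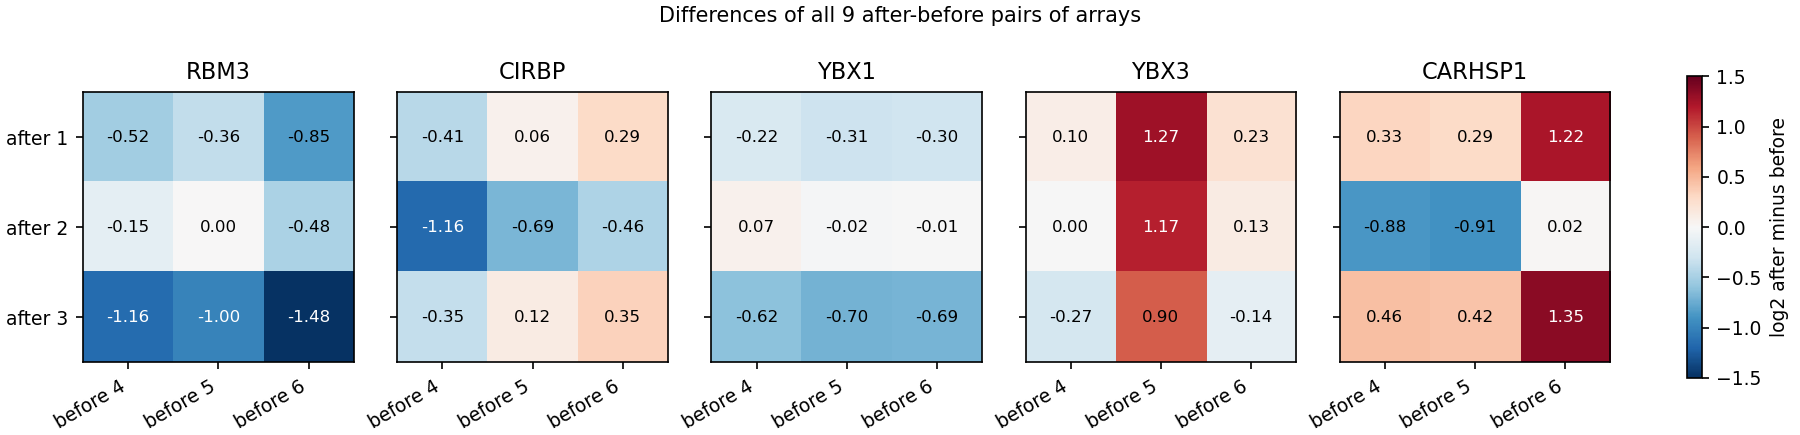
Log2 difference, after minus before, of each member for the 9 possible pairs of 1 after array (rows) and 1 before array (columns), in blue where the after array was lower and in red where it was higher. RBM3 is below 0 in 8 of 9 cells, the YBX3 values over 0.9 all stand in the before 5 column, and CIRBP is lowest in the after 2 row.

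The after 2 and before 6 arrays resembled each other more than any other after-before pair. The median size of their log2 difference over all probe sets was 0.11, against 0.20 to 0.82 in the other 8 pairs. RBM3 and CIRBP were both lower on after 2 in that pair, by -0.48 and -0.46. A lower difference was found in 0.799% of all probe sets for RBM3 and in 0.979% for CIRBP. YBX1 (-0.01) and CARHSP1 (0.02) differed little between these arrays. YBX3 (0.13) was near the median size, with 46.0% of all probe sets differing more. This is the comparison of 1 array with 1 other, singled out after the values were seen, and it has no replicate check. In the other 8 pairs a lower difference than that of RBM3 was found in 9.17% to 45.8% of all probe sets, and than that of CIRBP in 1.06% to 67.7%. CIRBP was higher on the after array in 4 of those 8.

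The members did not share a profile over the arrays. RBM3 and YBX1 were on the same side of their own 6-array means on 6 of 6 arrays, both lowest on after 3. CIRBP and CARHSP1 also shared their sides on 6 of 6 arrays, both lowest or second lowest on after 2 and before 6. RBM3 and CIRBP, which belong to one protein family, shared sides on 2 of 6 arrays. YBX3 was set apart by its low value on before 5. Likeness was measured as the root mean square difference between 2 genes' log2 values over the 6 arrays, each centred on its own mean. It was 0.25 for RBM3 and YBX1, 0.37 for CIRBP and CARHSP1, and 0.64 for RBM3 and CIRBP. Against RBM3, 6.66% of the 6336 other genes were closer than YBX1, and 62.1% were closer than CIRBP. Against YBX1, 14.4% were closer than RBM3. CIRBP and CARHSP1 were less close by this measure, since 36.6% of genes were closer to CIRBP than CARHSP1 was, and 30.5% closer to CARHSP1 than CIRBP was.

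By the same measure, the gene nearest to RBM3 was HNRNPDL, which encodes a heterogeneous nuclear ribonucleoprotein, at 0.08. On the after 1, 2 and 3 arrays HNRNPDL deviated from its mean by -0.24, 0.23 and -0.78, and RBM3 by -0.24, 0.12 and -0.88. On before 4, 5 and 6 the deviations were 0.19, 0.06 and 0.55 for HNRNPDL and 0.27, 0.12 and 0.60 for RBM3. The difference of HNRNPDL after cold was -0.53 ± 0.32 (SE). FMO5, a flavin-containing monooxygenase, and PIGW, an enzyme of membrane anchor synthesis, followed at 0.10 each. The FMO5 probe set was dim, with log2 means of 4.47 after and 5.15 before cold.

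Nearest to YBX1 were PDHB, a pyruvate dehydrogenase subunit, at 0.04, PWP1 at 0.05 and GLMN at 0.06. Nearest to CIRBP were the nuclease gene DNASE1L3 and the ciliary transport gene IFT122, both at 0.12, and GALT, an enzyme of galactose metabolism, at 0.13. DNASE1L3 and IFT122 were dim, with log2 means of 5.54 and 5.10 after cold. Nearest to YBX3 were SMAP1 at 0.10, RASD1 at 0.11 and EPAS1, a hypoxia-inducible transcription factor, at 0.12. Nearest to CARHSP1 were LOC506989, the vesicle tethering gene VPS51 and B3GALT4, at 0.04, 0.04 and 0.05. With 6 arrays and 6336 genes compared, small distances say only that these profiles look alike here.

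**Figure D4:**
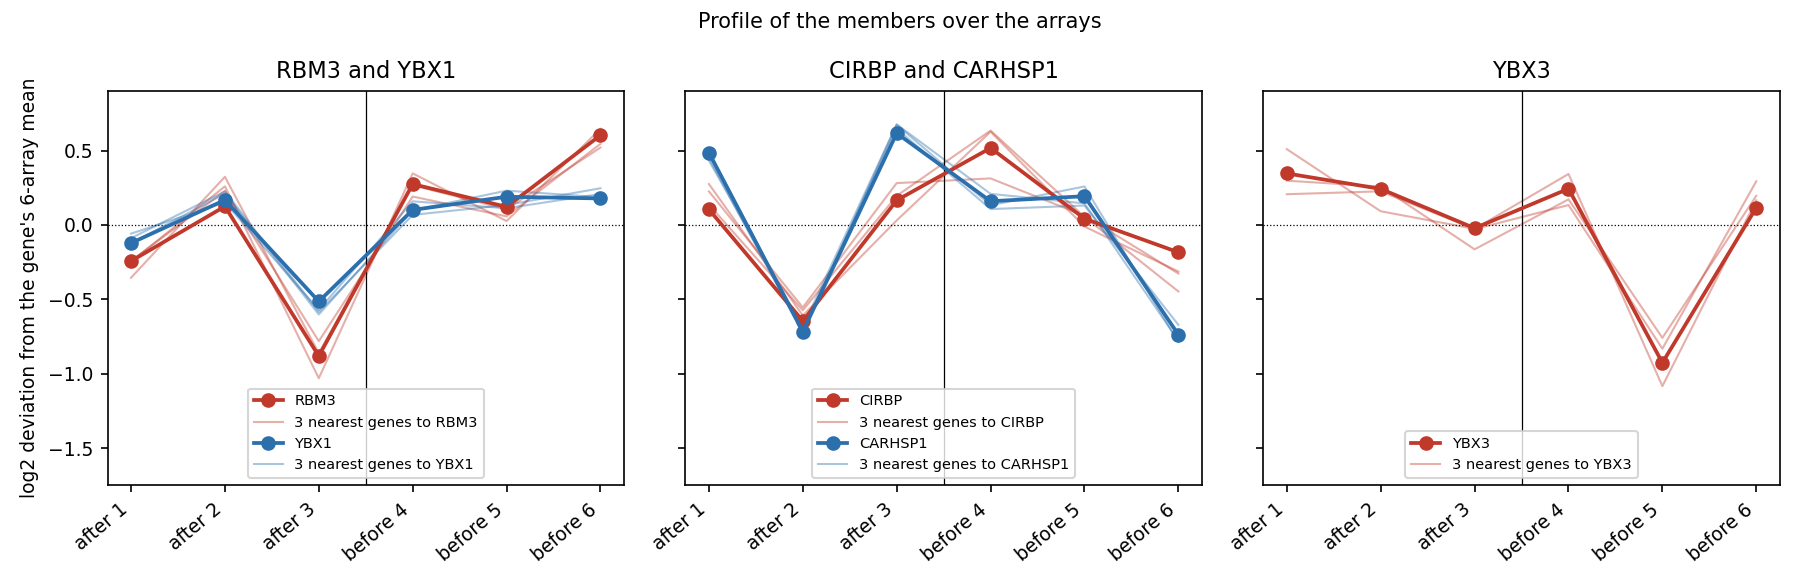
Deviation of each member's log2 intensity from its own mean on the 6 arrays (points and thick lines), with the 3 nearest genes as thin lines; the vertical line separates after from before arrays and lines only join the values of a gene. RBM3 and YBX1 are lowest on after 3, at -0.88 and -0.51, CIRBP and CARHSP1 are low on after 2, at -0.65 and -0.72, and YBX3 is low on before 5, at -0.93.

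The arrays also differed in markers of blood cell types, and in bulk RNA fewer cells of a type and less RNA per cell cannot be told apart. On after 3, where RBM3 and YBX1 were lowest, the markers listed for eosinophils, basophils and mast cells (3 of 6 measured) had a median deviation of -1.10. That median was the value of RNASE6, a gene not confined to these cells, at 10.45 there. ALOX15 was at 6.165 on after 3, and FCER1A at 7.187, above its after 2 value of 6.941. The pan-leukocyte markers (4 of 4) had a median deviation of -0.32 on after 3. PTPRC, CD53 and LCP1 were below both their group means there, but CORO1A had its highest value of the 6 arrays, at 13.07. Monocyte markers (3 of 5) stood at 0.52 there and neutrophil markers (3 of 6) at 0.37. On after 2 and before 6, where CARHSP1 was lowest, NK and cytotoxic markers (6 of 6) were at -0.50 and -0.63, and monocyte markers at -0.59 and -0.50. These medians did not hold for every gene. GZMB had its highest value on before 6, at 8.655, and KLRK1 was at 5.936 there, above both its group means (5.671 after and 5.737 before). CD14 was at 8.935 on after 2, between its group means of 9.066 after and 8.866 before. On before 5, where YBX3 was lowest, T cell markers (6 of 6) were at -0.33 and monocyte markers at 0.64.

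As summed linear intensities, the markers listed for eosinophils, basophils and mast cells covered 1619 to 3894 after and 3566 to 4588 before cold. RNASE6 was the brightest of them and weighed most in that sum. The pan-leukocyte markers covered 15080 to 17820 after and 14450 to 17920 before cold. The neutrophil markers covered 18560 to 24670 and 15920 to 24280, and the NK and cytotoxic markers 2212 to 4880 and 2175 to 4093. Monocyte markers covered 952 to 1774 and 905 to 1839, and T cell markers 7940 to 11350 and 8445 to 13180. The groups overlapped in each of these 6 sums, and the part of cell makeup in the members' values was not tested. The pan-leukocyte genes PTPRC, CD53, LCP1 and CORO1A had mean log2 intensities of 11.66, 12.07, 10.09 and 12.81 after cold and 11.82, 12.26, 10.33 and 12.69 before, so that 3 were lower and CORO1A was higher after cold. Probe sets of ALB and KRT5, genes of liver and skin, also gave intensities, with means of 9.21 and 7.01 after cold. An intensity by itself therefore does not show that a gene was expressed.

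The first principal component of all probe sets held 68.4% of the variance and separated after 3 at one end (-63.2) from after 2 and before 6 at the other (52.1 and 52.0). The remaining scores were -23.3 for after 1, -1.31 for before 4 and -16.3 for before 5. RBM3 and YBX1 had their lowest values, and CARHSP1 its highest, on the array with the lowest score. The part of this component in the members' differences was not tested. The median change over all probe sets was 0.02, with 6687 probe sets higher and 6076 lower after cold.

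Genes related to the members were described through 6 lists, each gene through its brightest probe set. In each list 0 genes passed an adjusted p of 0.05 (limma), and 0 had an unadjusted p under 0.05. The cold shock domain and glycine-rich relatives had 4 of 16 listed symbols measured, 2 higher and 2 lower after cold, with a median change of -0.16. That median was -0.51 without after 2 and 0.12 without after 3. The splicing-associated RBMX differed by -0.37 ± 0.51 (SE), RBMX2 by -0.35 ± 0.53 and HNRNPA0 by 0.10 ± 0.27. The other 2 probe sets of HNRNPA0 were at 0.09 and 0.23.

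The RBM-named genes are other proteins with an RNA recognition motif, and 25 of them were measured, RBMX and RBMX2 of the previous list included. After cold 11 of these means were higher and 14 lower, with a median change of -0.13. The direction of that median rested on single arrays: it was -0.39 without after 2 and 0.06 without after 3, and above 0 on leaving out 3 of the 6 arrays (after 1, after 3 or before 6). The groups did not overlap in 2 of the 25, both lower after cold, that is in 8%, beside 4.38% of all probe sets in either direction. RBM34 was at 6.78, 6.61 and 5.83 on after 1, 2 and 3 and at 7.15, 7.37 and 6.87 on before 4, 5 and 6, a difference of -0.72 ± 0.32 (SE; limma, adjusted p = 1.00). RBM45 was at 8.92, 9.23 and 8.60 after and at 9.32, 9.52 and 9.38 before, a difference of -0.49 ± 0.27, with its other probe set at -0.45. RBM18 differed by -0.83 ± 0.39, with its groups overlapping and its other probe set at -0.69. RBM34, RBM45, RBM18 and RBM3 shared their lowest array, after 3. In the same list RBM10, RBM14, RBM15B, RBM19, RBM23, RBM38 and RBM42 had their highest value on that array. The share of all probe sets with their lowest value on after 3 was not counted.

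Known regulators of RBM3 and CIRBP had 15 of 25 symbols measured, 4 higher and 11 lower after cold, with a median change of -0.16. This median too was -0.38 without after 2, and above 0 without after 1, after 3 or before 6, up to 0.06. PRMT1, which methylates CIRBP and other glycine-rich proteins, differed by 0.35 ± 0.36 (SE). The splicing kinase SRPK2 differed by -0.43 ± 0.46, with its other probe set at -0.45, and the splicing factor SRSF7 by -0.35 ± 0.37. The groups did not overlap in 1 of the 15, SRSF3, at 11.35, 11.36 and 11.11 after and 11.45, 11.43 and 11.60 before, a difference of -0.22 ± 0.24. Named after their values were seen, the heat shock transcription factor HSF1 differed by 0.29 ± 0.34 and CLK1, a kinase of splicing factors that is more active in the cold, by -0.21 ± 0.31. SRSF3 was likewise chosen after its values were seen.

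Translation partners and stress granule proteins had 18 of 28 symbols measured, 11 higher and 7 lower, with a median change of 0.02, or -0.0024 without before 4 and 0.15 without before 6. The groups did not overlap in 1 of them, FXR1, a polysome-associated RNA-binding protein. FXR1 was at 9.09, 9.73 and 7.92 after and at 9.91, 9.98 and 9.84 before, a difference of -0.996 ± 0.44 (SE; limma, adjusted p = 1.00). Like YBX1 it had a narrow spread before cold (SD 0.07, n = 3) and its lowest value on after 3. ELAVL1, which stabilises mRNAs, differed by 0.33 ± 0.27 and PTBP1 by 0.32 ± 0.29.

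Transcripts reported as bound or stabilised by the members had 10 of 16 measured, 5 higher and 5 lower, with a median of 0.04, or -0.03 without after 2 and 0.14 without after 3. RPA2, reported as bound by CIRBP, differed by -0.33 ± 0.28 (SE), with its other probe set at -0.13. TNF, a transcript bound by CARHSP1, differed by 0.35 ± 0.33 and IL2 by 0.30 ± 0.31. The IL2 probe set was dim, with log2 means of 4.37 after and 4.07 before cold, and 3.71% of all probe sets were dimmer. Receptors for extracellular CIRBP had 4 of 6 measured, 3 higher and 1 lower, with a median of 0.18, or -0.04 without after 3 and 0.29 without after 1. The adaptor MYD88 differed by 0.21 ± 0.32, CD14, also a monocyte marker above, by 0.20 ± 0.32 (other probe set 0.12) and IL6R by 0.16 ± 0.33 (other probe set 0.19). Over these lists the groups did not overlap in 0% to 8% of the genes of a list, beside the 4.38% of all probe sets.

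**Figure D5:**
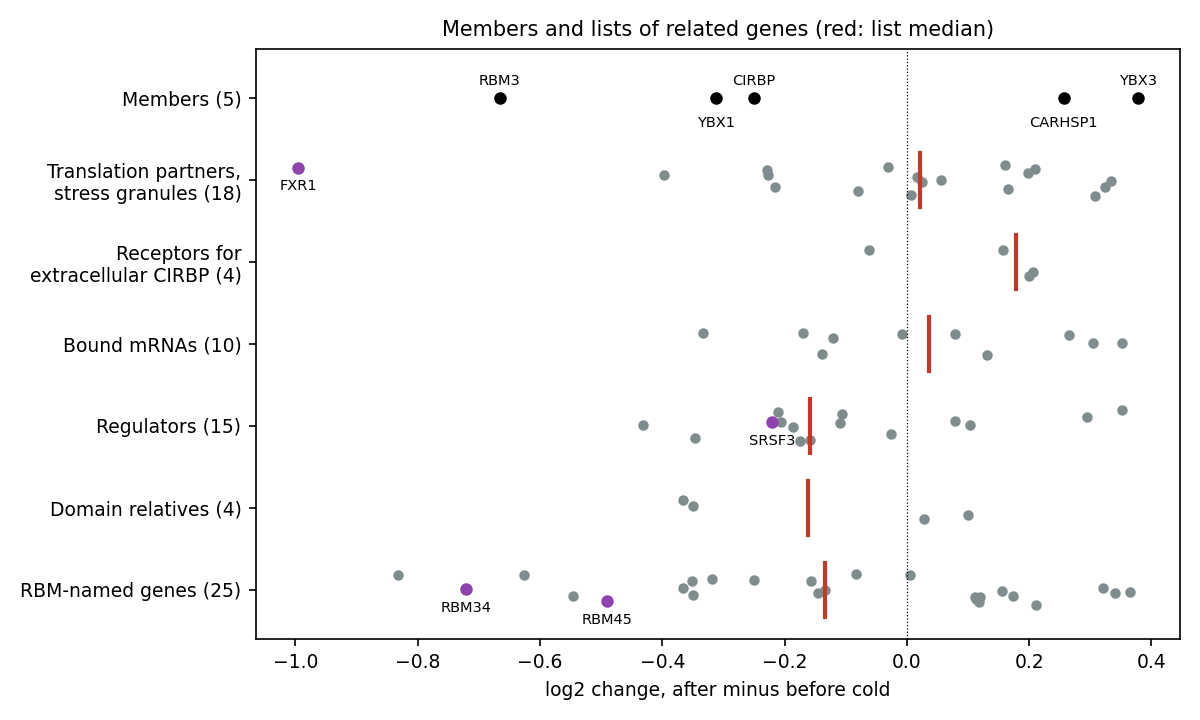
Log2 change, after minus before cold, of the 5 members (black) and of the measured genes of 6 lists of related genes (grey; purple where the before and after arrays did not overlap), with each list's median as a red line and its number of genes in parentheses; vertical scatter within a row only separates points. List medians lie between -0.16 and 0.18, and the 4 genes without overlap (FXR1, SRSF3, RBM34 and RBM45) lie below 0. Of all probe sets 4.38% had groups without overlap in either direction, and the share lower after cold was not taken separately.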

How the data were processed

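The authors deposited probe set intensities on a linear scale for 6 arrays, with GCOS and RMA (background correction, alignment of arrays and probe summary) named per the submitters' processing notes without versions. Neither a genome build nor a filter on probe sets is named in the labels. Shares of all probe sets and counts of measured genes refer to the 12763 probe sets of the deposited values. These need not be every probe set of the array. Values were taken to log2 with no pseudocount, filter or further normalization. Array medians lay between 7.25 and 7.50 on that scale. The number of arrays limits the precision, and detection calls were not used here.

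After and before arrays were compared with limma 3.58.1 in R 4.3.3 (moderated variance, no block, two-sided, Benjamini-Hochberg over 12763 probe sets, threshold 0.05). The scripts were tested on simulated data. Symbols came from the platform annotation, updated through RefSeq gene identifiers (8125 probe sets with 1 symbol, 56 with several, 4582 with none). Members and lists were chosen with earlier results of these data known. The named genes were all members, the 3 genes of each list with the smallest p, the 3 genes nearest to each member, and markers that moved with a member. HSF1, CLK1 and SRSF3 were added after their values were seen. So were the RBM-named genes highest on after 3 and the single-array values of CORO1A, PTPRC, CD53, LCP1, GZMB, KLRK1, CD14, RNASE6, ALOX15 and FCER1A. Protein and promoter sequences were not used here.

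Alternatives were filters on the dimmest 25% or 50%, quantile, cyclic loess or median normalization, trend and robust variance, array weights, an unadjusted p, each array left out, each of 6 matchings as a block, the mean over a gene's probe sets for the lists, and, added after the data were seen, leaving out after 2 and before 6 together.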

Additional observations from a re-analysis of the deposited data

How the results depend on the processing

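No member passed the threshold in any of the 21 settings run (limma, adjusted p from 0.283 to 1.00). Filters, variance models and blocks (10 settings) leave the differences at their values by construction. Of the 55 member values under the 11 other settings, 4 had the opposite direction. They were CIRBP without after 2 (0.0095, or -0.41 to 0.0095 on leaving out each array), YBX3 with array weights (-0.039), and CARHSP1 with array weights (-0.0097) and without before 6 (-0.048, or -0.048 to 0.68 on leaving out each array). RBM3 ranged from -0.89 to -0.39, YBX1 from -0.47 to -0.13 and YBX3 from 0.0090 to 0.59 on leaving out each array. The estimated array weights ran from 0.0019 (after 1) to 30.7 (before 4), and their estimation stopped before convergence.

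The unadjusted threshold gave 63 probe sets in place of 0. The number of members without overlap, 0 over 6 arrays, was 0 to 3 on leaving out each array. It was 3 without after 2 and before 6 together, and fewer arrays make overlap rarer. The medians of all 6 related lists had the opposite sign on leaving out at least 1 of the arrays, as given beside each list, and that of the translation partners was 0.18 with array weights. No paired analysis was possible because the labels do not say which arrays share an animal, so each matching was run as a block. What dim signal limits was not tested.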
